A study of Mus musculus with 12 samples.

Results

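Red cells carry carbon dioxide and bicarbonate with cytosolic carbonic anhydrases and an anion exchanger of the membrane, and their membrane holds a set of blood group proteins. Of these genes 9 were followed: the carbonic anhydrases Car1 and Car2, the anion exchanger Slc4a1, the Rh complex genes Rhag and Rhd, the Kell protein Kel, the erythroblast membrane protein Ermap, the translocator protein Tspo2 and the erythropoietin receptor Epor. They were chosen by name with earlier results of these data known, so the shares over all genes given below serve as description only. All probe sets that the platform annotation gives to exactly 1 of these symbols were used, 11 of the 45037 probe sets tested. Each gene is represented by its brightest probe set over the 12 arrays, and it is 1 of 18193 genes treated in this way. Car1, Car2, Rhag, Rhd, Kel, Tspo2, Epor and Ermap have 1 probe set each, and Slc4a1 has 3.

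RNA of sorted mouse liver cells was hybridized to Affymetrix MG430 v2 arrays, with 3 arrays for each of 4 groups. The KI groups were ST-HSC, short-term hematopoietic stem cells, and GMP-like cells, granulocyte-monocyte progenitors in the labels, of mice homozygous for Q202L, a point mutation of the transcription factor PU.1 that impairs its binding to c-Jun. Their counterparts were WT ST-HSC and WT GMP of littermates from the same crosses of heterozygous mice. All groups share the labelled strain C57Bl/6, the newborn age and the liver as source, while the study describes its mice as of mixed strain and its sorts as fetal liver. The mutation was introduced into the germline, so all cells carry it, and the study kept more than 1 founder line without saying which line gave which sample. Both sorts took lineage-negative c-kit+ cells, Sca-1+ CD150- for ST-HSC and Sca-1- with high CD16/CD32 for GMP. The sample records give the ST-HSC as CD48+, whereas the title of the series and the methods give CD48-. The study took the KI GMP-like cells at intermediate CD34 and the WT GMP as CD34+. No source says whether livers were pooled or whether the 3 samples of a group came from separate animals, so the p-values rest on the spread between the samples of a group, and this spread may be technical. In sorted populations, fewer cells of a type and less RNA per cell cannot be told apart.

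As background, carbonic anhydrase turns carbon dioxide into bicarbonate, and the anion exchanger, also called band 3, swaps bicarbonate for chloride across the red cell membrane. Band 3, the Rh complex and other blood group proteins are held in place by ankyrin and the spectrin skeleton beneath them. Most of these genes are switched on in erythroid progenitors and erythroblasts under GATA1, whereas PU.1 is known for its role in myeloid and B cells and for binding to GATA1.

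In KI ST-HSC, 5 of the 9 genes rose relative to WT ST-HSC: Kel, Car1, Ermap, Rhag and Tspo2. Their log2 differences lay between 1.10 and 3.32. None fell by the limma test, none was lower at an unadjusted p under 0.05 either, and 4 (Car2, Rhd, Epor and Slc4a1) did not pass. In KI GMP-like cells, 2 of the 9 rose relative to WT GMP, Kel at a log2 difference of 4.41 and Tspo2 at 1.86, and none fell, again with 0 lower at an unadjusted p under 0.05. Kel and Tspo2 were thus the 2 genes called in both comparisons. Calls are at an adjusted p under 0.05, Benjamini-Hochberg over all probe sets, from limma in 1 fit of the 4 group means. Over all 18193 genes, the share called in ST-HSC was 1.33% for a higher and 1.68% for a lower level in KI. In GMP it was 1.19% for a higher and 1.40% for a lower level in KI. At an unadjusted p under 0.05, a higher level in KI was found for 7.00% and a lower one for 7.32% of all genes in ST-HSC, and in GMP for 6.67% and 9.19%. The 9 genes had a median log2 difference of 1.38 in ST-HSC and 0.27 in GMP, against −0.02 and −0.03 over all genes.

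**Figure D1:**
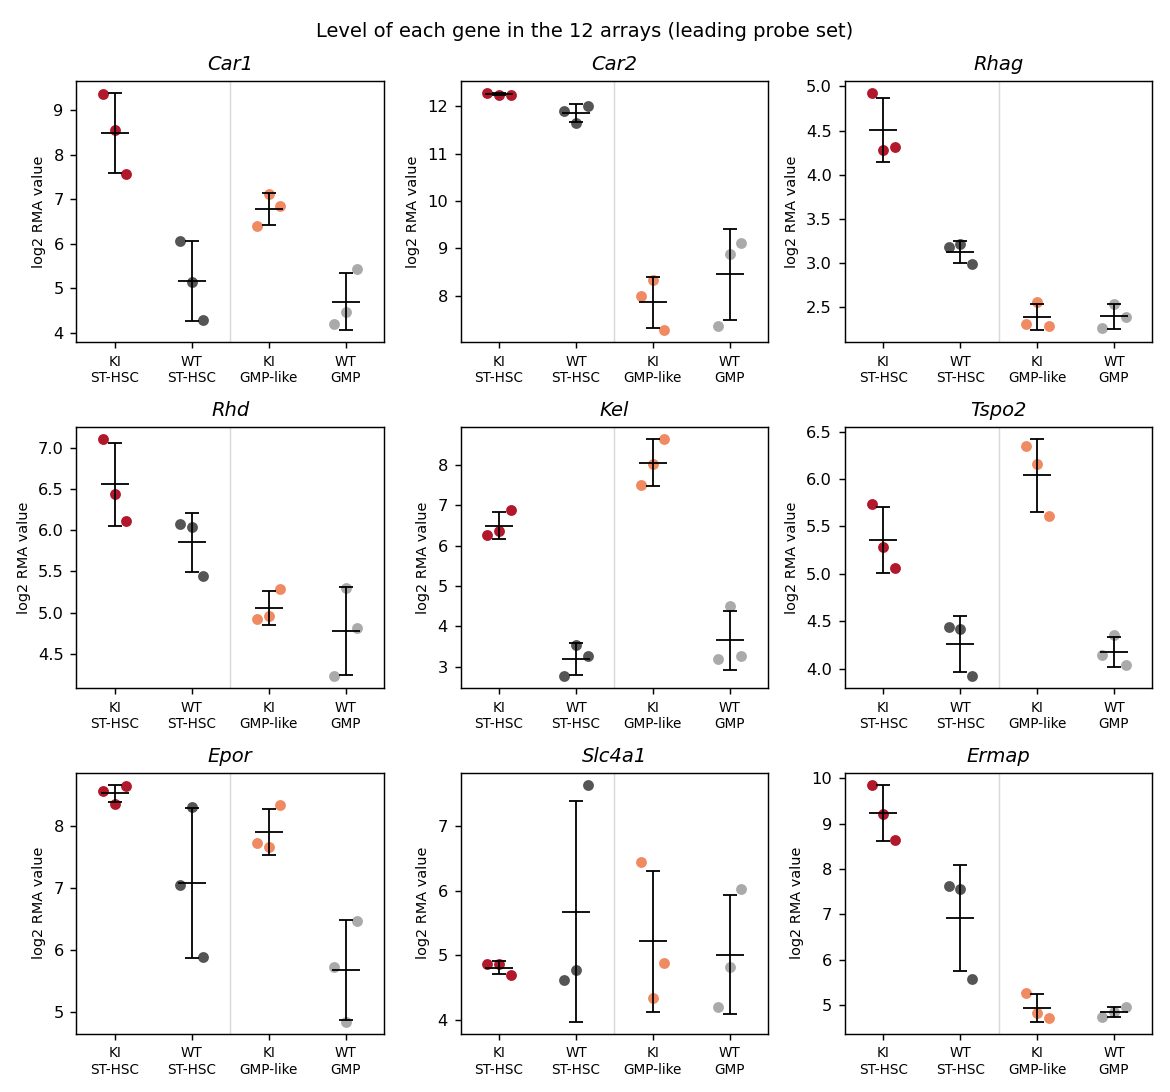
Log2 RMA value (y axis of each panel, with its own range) of the 9 genes in the 12 arrays. Points are arrays, horizontal ticks group means and bars 1 SD (n = 3), with KI left of WT in each population. The KI arrays lie above the WT arrays in both populations for Car1, Kel, Tspo2 and Epor. In ST-HSC they also do so for Car2, Rhag, Rhd and Ermap.

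The plot of levels by array shows each gene within a population. Levels were not compared between the populations, because the medians of the arrays lay at 5.00 to 5.10 in ST-HSC and at 4.70 to 4.79 in GMP. The array median serves below as a mark of a dim probe set. Kel and Tspo2 of the WT arrays and Rhag of all arrays lay below it. The leading probe set of Slc4a1 did so in 3 KI and 2 WT ST-HSC arrays and in 1 array of each GMP group. Car1 was below it in 1 WT ST-HSC and 2 WT GMP arrays, Rhd in 1 WT GMP array and Ermap in 1 KI GMP-like array. RMA compresses differences in this range, so the sizes of the differences were not ranked between genes.

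Car1 encodes the carbonic anhydrase that is abundant in mature red cells. Its probe set 1416193_at had log2 values of 9.36, 8.55 and 7.56 in KI ST-HSC, against 6.08, 5.15 and 4.29 in WT ST-HSC. All KI arrays lay above all WT arrays, with replicate 1 the highest and replicate 3 the lowest in each group. The log2 difference was 3.32 (SE 0.53, limma adjusted p = 0.0086), a 9.99-fold higher level in KI ST-HSC. In GMP, Car1 had 6.39, 7.11 and 6.86 in KI GMP-like cells, against 4.20, 4.48 and 5.43 in WT GMP. The groups did not overlap there either, and the difference of 2.09 (95% interval 0.91 to 3.26) had a limma adjusted p of 0.079. A fit restricted to ST-HSC, 6 arrays, gave the ST-HSC difference an adjusted p of 0.0545.

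Car2 encodes a widely used, fast carbonic anhydrase that osteoclasts and many epithelia also express. Its probe set 1448752_at was bright in ST-HSC, with 12.28, 12.25 and 12.24 in KI and 11.91, 11.65 and 12.01 in WT. The KI arrays all lay above the WT arrays, but by a narrow margin, and the log2 difference of 0.40 (95% interval −0.50 to 1.30) had a limma adjusted p of 0.78. In GMP the values were 7.99, 8.32 and 7.27 in KI GMP-like cells and 7.35, 8.89 and 9.11 in WT GMP. These groups overlapped, and the difference was −0.59 (limma adjusted p = 0.593).

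Slc4a1 encodes band 3, the anion exchanger of the red cell membrane. Its leading probe set 1416464_at had 4.88, 4.87 and 4.69 in KI ST-HSC, against 4.62, 4.77 and 7.63 in WT ST-HSC. In KI GMP-like cells it had 6.43, 4.35 and 4.88, against 4.20, 4.82 and 6.02 in WT GMP. Single arrays stood high here: WT ST-HSC replicate 3, KI GMP-like replicate 1 and WT GMP replicate 3. The second probe set 1434502_x_at, of a kind that can bind transcripts of several genes, was highest in the same 3 arrays, at 5.79, 4.72 and 4.50, and at 2.96 to 3.63 in the other 9. The third, 1431743_a_at, stayed between 4.80 and 5.57 in all 12 arrays. The leading probe set differed by −0.86 in ST-HSC (95% interval −2.62 to 0.90, limma adjusted p = 0.745) and by 0.21 in GMP (−1.55 to 1.97, adjusted p = 0.954), and none of the 3 probe sets passed in either population. Without WT ST-HSC replicate 3 the ST-HSC difference was 0.12, and without KI GMP-like replicate 1 the GMP difference was −0.40.

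Rhag encodes the Rh-associated glycoprotein, a membrane channel that conducts ammonia and that the Rh antigen proteins need to reach the surface of human red cells. Its probe set 1419014_at had 4.93, 4.28 and 4.32 in KI ST-HSC, against 3.19, 3.21 and 2.99 in WT ST-HSC. The KI arrays were all higher, and the log2 difference was 1.38 (SE 0.18, limma adjusted p = 0.00296), or 2.60-fold. All 12 arrays read this probe set below their own median, so the rise lay in the dim range of the array. In GMP the values were 2.31, 2.56 and 2.29 in KI GMP-like cells and 2.26, 2.54 and 2.39 in WT GMP, nearly the same in all 6 arrays. The GMP difference was −0.01 (95% interval −0.41 to 0.39, limma adjusted p = 0.991).

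Rhd encodes the Rh protein itself, the partner of Rhag in the Rh complex. Its probe set 1417049_at had 7.11, 6.44 and 6.11 in KI ST-HSC, against 6.08, 6.04 and 5.44 in WT ST-HSC. The lowest KI array and the highest WT array lay next to each other, and the log2 difference of 0.70 (limma adjusted p = 0.381) did not pass. In GMP it had 4.92, 4.96 and 5.29 in KI GMP-like cells, against 4.23, 5.30 and 4.82 in WT GMP. The groups overlapped, with a difference of 0.27 (95% interval −0.42 to 0.97, limma adjusted p = 0.796).

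Kel encodes the Kell blood group protein, an endopeptidase of the neprilysin family that can process endothelin. Its probe set 1449057_at had 6.27, 6.36 and 6.88 in KI ST-HSC, against 2.77, 3.55 and 3.26 in WT ST-HSC. In KI GMP-like cells it had 7.51, 8.02 and 8.65, against 3.19, 4.49 and 3.27 in WT GMP. The KI arrays were far above the WT arrays in both populations, and every KI array read Kel above its own median and every WT array below it. The log2 difference was 3.31 in ST-HSC (SE 0.39, limma adjusted p = 0.0015) and 4.41 in GMP (SE 0.39, limma adjusted p = 0.000285). Kel was called in both populations after leaving out any 1 of the 12 arrays, with an adjusted p of at most 0.00995 in ST-HSC and 0.00204 in GMP.

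Ermap encodes an erythroid membrane protein of the butyrophilin family, which carries the Scianna antigens in humans. Its probe set 1418909_at had 9.86, 9.20 and 8.63 in KI ST-HSC, against 7.62, 7.57 and 5.57 in WT ST-HSC. All KI arrays were higher, and WT ST-HSC replicate 3 was well below the other WT arrays. The log2 difference was 2.31 (SE 0.49, limma adjusted p = 0.0388), or 4.96-fold. Without WT ST-HSC replicate 3 the difference was 1.64 and the gene was still called, but the call was lost without any 1 of 9 other arrays (the KI ST-HSC, KI GMP-like and WT GMP ones), where the adjusted p reached up to 0.145. In GMP the values were 5.28, 4.82 and 4.71 in KI GMP-like cells and 4.74, 4.84 and 4.96 in WT GMP. These overlapped, and the difference was 0.09 (SE 0.49, limma adjusted p = 0.969).

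Tspo2 encodes an erythroid relative of the mitochondrial translocator protein Tspo, with a role in cholesterol handling of erythroblasts. Its probe set 1453047_at had 5.73, 5.28 and 5.06 in KI ST-HSC, against 4.44, 4.42 and 3.92 in WT ST-HSC. In KI GMP-like cells it had 6.35, 6.16 and 5.61, against 4.15, 4.35 and 4.04 in WT GMP. As for Kel, the groups did not overlap in either population, and the probe set was above the array median in the KI arrays and below it in the WT arrays. The log2 difference was 1.10 in ST-HSC (SE 0.24, limma adjusted p = 0.0433) and 1.86 in GMP (SE 0.24, limma adjusted p = 0.0034). The GMP call was kept without any 1 of the 12 arrays. The ST-HSC call was lost without any 1 of 10 arrays (all but KI GMP-like replicates 1 and 3), with an adjusted p of up to 0.152.

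Epor encodes the receptor of erythropoietin, the hormone that keeps erythroid progenitors alive and dividing. Its probe set 1423344_at had 8.56, 8.36 and 8.63 in KI ST-HSC, against 7.05, 8.30 and 5.87 in WT ST-HSC. The KI arrays lay close together and the WT arrays were widely spread, with WT replicate 2 just below the lowest KI array. The log2 difference of 1.45 (95% interval 0.23 to 2.66, limma adjusted p = 0.276) did not pass, and without WT ST-HSC replicate 3 it was 0.85. In GMP, Epor had 7.72, 7.65 and 8.33 in KI GMP-like cells, against 5.72, 4.83 and 6.46 in WT GMP. All KI arrays were higher, with a difference of 2.23 (95% interval 1.02 to 3.44) and a limma adjusted p of 0.0694. The adjusted p in GMP was 0.0270 without WT ST-HSC replicate 2 and 0.0319 without WT ST-HSC replicate 3, which bear on it only through the shared estimate of the spread.

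**Figure D2:**
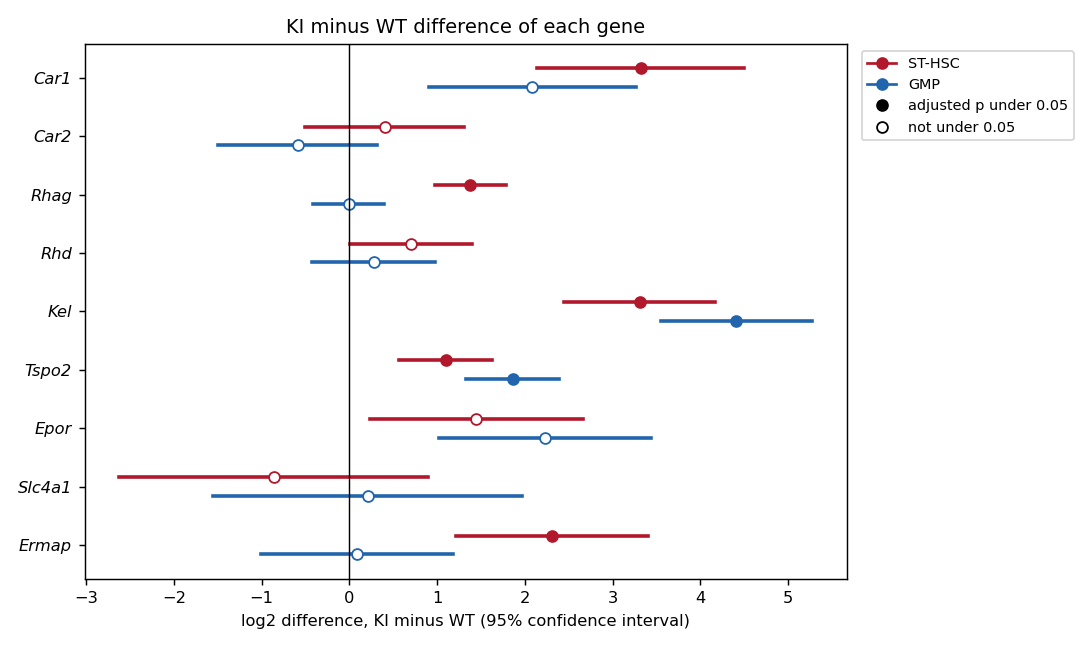
Log2 difference of KI minus WT (x axis) of the 9 genes (rows) in ST-HSC (red) and in GMP (blue), with 95% confidence intervals from limma, each for its own probe set alone. Filled points have an adjusted p under 0.05. Kel is at 3.31 and 4.41, and Rhag at 1.38 and −0.01.

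Counted by overlap, the KI arrays lay above all WT arrays for 8 of the 9 genes in ST-HSC, all but Slc4a1, and for 4 in GMP: Car1, Kel, Tspo2 and Epor. Such separation held for 10.9% of all genes in ST-HSC and for 8.26% in GMP. For no gene of the 9 did the KI arrays lie below all WT arrays, which held for 11.2% of all genes in ST-HSC and for 11.1% in GMP. In the plot of differences, Kel and Tspo2 were called in both populations, Rhag and Ermap in ST-HSC with GMP differences near 0, and Car1 in ST-HSC with a GMP difference of 2.09 that did not pass. The difference between the GMP and the ST-HSC differences was tested in the same fit and was not called for any of the 9, with 0.0495% of all genes called. At an unadjusted p under 0.05, reached by 8.45% of all genes, there were 3: Rhag at −1.39 (limma adjusted p = 0.112), Ermap at −2.22 (limma adjusted p = 0.398) and Tspo2 at 0.76 (limma adjusted p = 0.627). Limma with a variance trend and robust prior called 0 as well, so that no gene of the set was shown to respond differently in the 2 populations.

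**Figure D3:**
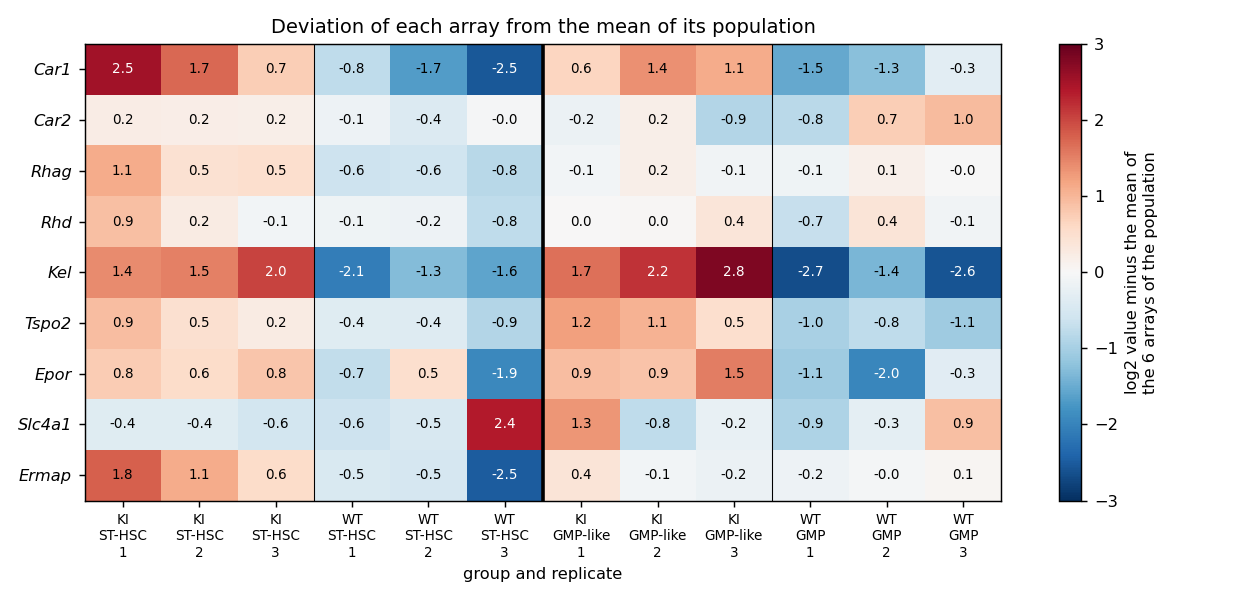
Deviation of each array from the mean of the 6 arrays of its population (colour and printed number, log2) for the 9 genes (rows) in the 12 arrays (columns, KI left of WT). Kel deviates by 1.42 to 2.80 in the KI arrays, and Slc4a1 by 2.39 in WT ST-HSC replicate 3 alone among the ST-HSC arrays.

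The same array was often the highest or lowest of its group across these genes. In KI ST-HSC, replicate 1 was the highest of its group for 7 of the 9 genes and replicate 3 the lowest for 6. In WT ST-HSC, replicate 3 was the lowest for 6 of the 9, and it was the highest for Slc4a1 and Car2. In WT GMP, replicate 1 was the lowest for 7. In the map of deviations by array, Car1, Kel and Tspo2 lay above the mean of their population in the KI arrays and below it in the WT arrays. After subtraction of the mean of each population, the Pearson correlation over the 12 arrays was 0.90 for Kel with Tspo2, 0.88 for Rhag with Ermap and 0.83 for Car1 with Tspo2. It was 0.47 for Kel with Ermap and 0.52 for Rhag with Tspo2. Slc4a1 correlated negatively with 7 of the other genes, the lowest being −0.53 with Ermap. These coefficients hold the difference between KI and WT as well as the spread within a group, and they are given as a description.

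Among the 3698 genes whose centred values had an SD of at least 0.5, those most like each called gene were found by the same correlation over the 12 arrays. For Kel they were Pla2g6 (r = 0.976), Rnf128 (r = 0.975) and Hgf (r = 0.974). For Tspo2 they were Gp1bb (r = 0.970), a subunit of the platelet glycoprotein receptor, Acrbp (r = 0.967) and Gzmb (r = 0.966). Car1 was matched best by Scaf1 (r = 0.970), Ndrg2 (r = 0.944) and the mast cell carboxypeptidase Cpa3 (r = 0.939). The genes most like Rhag were Tuba8 (r = 0.953), Adamts1 (r = 0.925) and Ccn3 (r = 0.922). Ermap came closest to Papss2 (r = 0.954), Tnfaip2 (r = 0.938) and Slamf1 (r = 0.932), the gene of the sort marker CD150.

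The promoters of 6 of the 9 genes (Rhag, Rhd, Kel, Tspo2, Epor and Ermap) were read from RefSeq, assembly GRCm38.p6, as the 250 bases before the start used in its promoter table. For 4 of them this start lies inside the gene as annotated, so that the window reaches into the gene by 50 bases for Rhag, 63 for Tspo2, 18 for Ermap and 9 for Kel. Those of the 4 called genes with an entry are printed because they differ in the motif that erythroid GATA factors bind. Capitals mark each match to AGATAA or AGATAG or TGATAA or TGATAG on either strand. Rhag lies on the forward strand at chr17:40810899-40811148, Kel on the reverse strand at chr6:41704326-41704575, Ermap on the reverse strand at chr4:119189996-119190245 and Tspo2 on the reverse strand at chr17:48451502-48451751.
Rhag: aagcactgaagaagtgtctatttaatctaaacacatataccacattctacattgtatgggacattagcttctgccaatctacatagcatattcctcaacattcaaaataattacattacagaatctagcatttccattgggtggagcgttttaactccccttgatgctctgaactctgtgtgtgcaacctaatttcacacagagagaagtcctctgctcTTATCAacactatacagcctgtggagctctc
Kel: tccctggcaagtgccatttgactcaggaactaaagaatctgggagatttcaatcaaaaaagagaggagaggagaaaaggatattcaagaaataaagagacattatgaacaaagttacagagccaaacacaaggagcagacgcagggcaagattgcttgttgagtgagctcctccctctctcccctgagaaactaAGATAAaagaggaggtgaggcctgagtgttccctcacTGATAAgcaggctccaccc
Ermap: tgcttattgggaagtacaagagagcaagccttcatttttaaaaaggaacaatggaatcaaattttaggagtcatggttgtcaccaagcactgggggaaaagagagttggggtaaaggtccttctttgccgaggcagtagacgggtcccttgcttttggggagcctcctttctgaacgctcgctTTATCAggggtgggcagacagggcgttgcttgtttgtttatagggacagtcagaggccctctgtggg
Tspo2: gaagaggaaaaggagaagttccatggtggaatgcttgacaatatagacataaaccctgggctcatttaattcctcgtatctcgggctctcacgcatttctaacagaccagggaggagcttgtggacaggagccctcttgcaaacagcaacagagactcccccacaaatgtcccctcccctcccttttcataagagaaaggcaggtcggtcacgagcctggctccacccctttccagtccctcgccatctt

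A GATA match was present in 5 of these 6 promoters, against 26.5% of 32851 promoters of the same length. Its first base lay 31 bases before the start in Rhag, within the annotated gene, and 67 in Ermap, while Kel had 2, at 56 and 19 bases before the start. Rhd had 1 at 43 and Epor 1 at 54 bases before the start, though neither gene was called in either population. Tspo2 was called in both and held no match in this window. The CACC-type motif CCNCNCC, which erythroid Krüppel-like factors can bind and whose matches may overlap each other, was found in 4 of the 6 and in 65.4% of all promoters. AGGAAGT, a form of the Ets motif that PU.1 binds, was found in 0 of the 6 and in 7.69% of all. TGANTCA, the AP-1 motif that c-Jun binds, was found in 1 of the 6, Kel, at 232 bases before the start, and in 6.75% of all. All motifs were searched on both strands. With only 6 promoters, of red cell genes chosen by name, these shares are a description, and a link to the KI differences was not tested.

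Of 10 measured genes of the membrane skeleton and its anchors, 2 rose in KI ST-HSC and none fell, with 4 higher and 0 lower at an unadjusted p under 0.05. They were Ank1, the ankyrin that ties band 3 to spectrin, at a log2 difference of 0.91 (limma adjusted p = 0.0348), and Add2, an adducin that caps actin at spectrin junctions, at 1.08 (limma adjusted p = 0.0371). Sptb, the beta chain of spectrin, was at 0.42 and Epb42, the band 3 partner protein 4.2, at 1.42 (limma adjusted p = 0.355), neither called. Epb42 had 3.95, 6.42 and 7.07 in KI ST-HSC, against 4.46, 4.63 and 4.08 in WT ST-HSC, so KI replicate 1 lay below every WT array. In GMP none of the 10 was called, with 1 higher and 1 lower at an unadjusted p under 0.05. The median difference of the list was 0.44 in ST-HSC and −0.07 in GMP. Of 20 blood group carriers, channels and transporters, only Cd55, the complement regulator that carries the Cromer antigens in humans, rose in KI ST-HSC, at 2.49 (limma adjusted p = 0.0158). At an unadjusted p under 0.05, 4 of the 20 were higher and 0 lower in ST-HSC. Cd55 was at 1.70 in GMP (limma adjusted p = 0.0862), where none of the 20 was called and 3 were higher and 2 lower at an unadjusted p under 0.05. The transferrin receptor Tfrc was at 1.14 in ST-HSC and 1.18 in GMP, and the water channel Aqp1 at 1.23 and −0.06, all not called.

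Of the 14 other carbonic anhydrases none was called in either population. In ST-HSC, 2 had an unadjusted p under 0.05 with a higher and 1 with a lower level in KI, and in GMP the numbers were 0 and 2. The mitochondrial Car5b had a log2 difference of 1.86 in ST-HSC (limma adjusted p = 0.0517), and the cytosolic Car13 was not called either (limma adjusted p = 0.287). Of 10 measured relatives of the Rh, Tspo, Slc4a, Kell and butyrophilin families none was called, with 1 lower and 0 higher at an unadjusted p under 0.05 in ST-HSC and 0 of either direction in GMP. Tspo itself, the broadly expressed relative of Tspo2, was at −0.91 in ST-HSC (limma adjusted p = 0.0937) and at −0.27 in GMP.

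Of 15 measured genes downstream of the erythropoietin receptor none was called in either population. An unadjusted p under 0.05 was reached by 4 with a higher and 2 with a lower level in KI ST-HSC, and by 3 and 0 in the GMP comparison. Jak2, the kinase bound to the receptor, was at −0.55 in ST-HSC and 0.37 in GMP, and Stat5a, the factor it activates, at 1.36 (limma adjusted p = 0.224) and −0.02. Stat5a had 10.13, 12.21 and 9.86 in KI ST-HSC, against 9.45, 9.30 and 9.36 in WT ST-HSC, so replicate 2 of KI stood apart. The median of the list was 0.12 in ST-HSC and 0.13 in GMP.

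Of 15 erythroid transcription factors, 3 rose and none fell in KI ST-HSC, with 6 higher and 0 lower at an unadjusted p under 0.05. They were Gfi1b, a repressor of erythroid and megakaryocytic cells, at 2.92, Gata2 at 1.86 (limma adjusted p = 0.0325) and Nfe2 at 0.80 (limma adjusted p = 0.0356). In KI GMP-like cells 3 rose, Gfi1b at 1.71 (limma adjusted p = 0.0014), Nfe2 at 0.81 (limma adjusted p = 0.0372) and Klf3 at 1.22 (limma adjusted p = 0.0432), and 1 fell, Lmo2 at −1.48 (limma adjusted p = 0.0174). Gata1, the factor that drives most red cell genes, was at 1.51 (limma adjusted p = 0.0543) and 1.34 (limma adjusted p = 0.0813), and Klf1 at 2.58 (limma adjusted p = 0.153) and 1.71 (limma adjusted p = 0.357), in ST-HSC and GMP. Of 15 measured globin and heme genes, only Alas2, the first enzyme of erythroid heme synthesis, rose in KI ST-HSC, at 0.97 (limma adjusted p = 0.0068), with all 12 arrays below their own median. At an unadjusted p under 0.05, 3 of the 15 were higher and 1 lower in ST-HSC, and none was called in GMP, where 0 were higher and 1 lower at an unadjusted p under 0.05. The alpha globin gene Hba-a2 was at −0.11 in ST-HSC and −0.15 in GMP, not called.

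**Figure D4:**
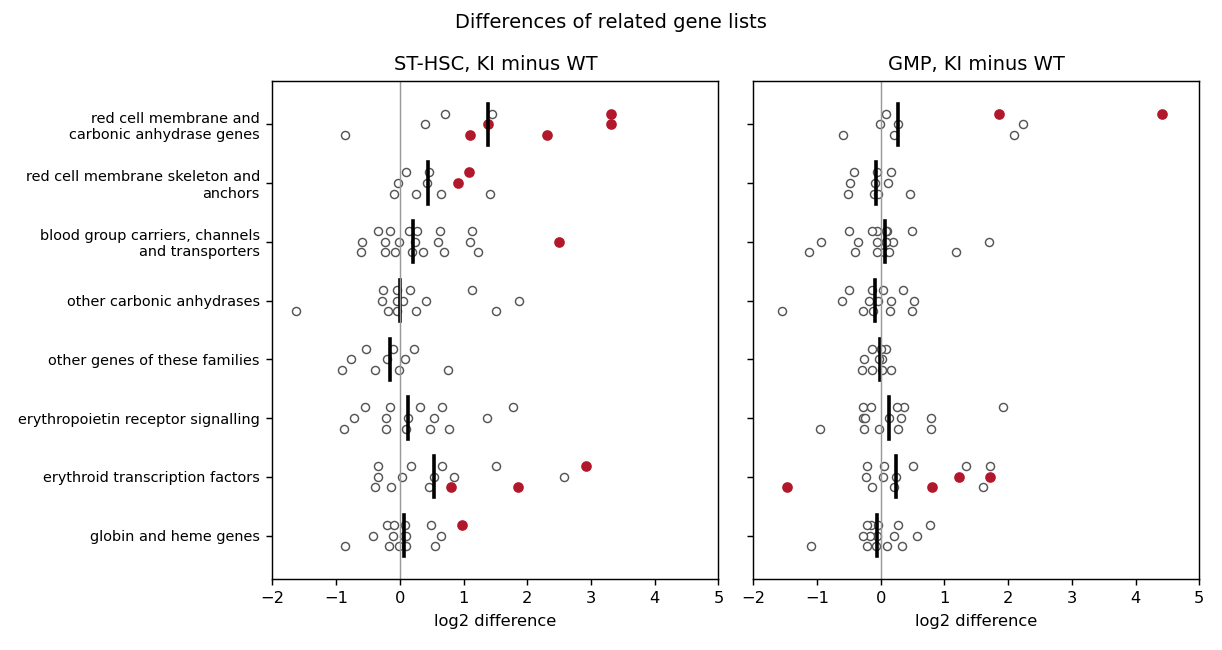
Log2 differences of KI minus WT (x axis) of the 9 genes (top row) and of 7 related gene lists (other rows), in ST-HSC on the left and in GMP on the right. Each point is a gene by its brightest probe set, red where its adjusted p is under 0.05, and the black bar is the median of the row. The 9 genes have a median of 1.38 in ST-HSC and 0.27 in GMP, and the erythroid transcription factors one of 0.53 and 0.23.

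Markers of other cells moved in the same arrays, and their part in the results on the 9 genes was not tested. The summed unlogged level of 11 megakaryocyte markers was 2843 to 3119 in KI ST-HSC, against 585 to 1365 in WT ST-HSC, and 933 to 1916 in KI GMP-like cells, against 776 to 900 in WT GMP. Of these, 2 rose in KI ST-HSC, Pf4 and Gp1bb, and 1 in KI GMP-like cells, Gp1bb. At an unadjusted p under 0.05, 7 were higher and 0 lower in ST-HSC, and 1 and 0 in GMP. Itgb3, the brightest of the 11 in every array, was not called in ST-HSC (limma adjusted p = 0.0725) or GMP (limma adjusted p = 0.785). The sum of 11 markers of mast cells, basophils and eosinophils was 4372 to 5286 in KI ST-HSC, against 718 to 2417 in WT ST-HSC, with 3 risen (Cpa3, Mcpt8 and Hdc). The GMP sums overlapped, from 9387 to 12046 for KI GMP-like samples and from 5436 to 10830 for WT GMP samples, with Cpa3 and Cma1 risen and Ms4a2 fallen. The sum of 12 macrophage markers was 267 to 343 in KI ST-HSC, against 3921 to 6884 in WT ST-HSC, and 237 to 548 in KI GMP-like cells, against 2154 to 3471 in WT GMP. Of the 12, 1 was higher and 6 lower at an unadjusted p under 0.05 in ST-HSC, and 0 and 5 in GMP. Csf1r and Mpeg1, the brightest of the 12 in every WT array, weighed most in the WT sums. Csf1r and Mpeg1 fell in both populations, and Cd163 rose in KI ST-HSC. That of 9 B lymphoid markers was 241 to 254 in KI ST-HSC, against 1280 to 2719 in WT ST-HSC, and 247 to 421 in KI GMP-like cells, against 639 to 1073 in WT GMP. Of these, 3 fell in KI ST-HSC, the recombinase gene Rag1 at −4.47 (limma adjusted p = 0.00101), Vpreb1 of the surrogate light chain at −4.21 (limma adjusted p = 0.0421) and Cd79b of the B cell receptor at −2.29 (limma adjusted p = 0.0189), and Cd79b also fell in KI GMP-like cells, at −2.12 (limma adjusted p = 0.0321). The sum of 11 granulocyte markers overlapped in ST-HSC, at 19442 to 26820 in KI and 12090 to 21706 in WT, and none of them was called there, with 3 higher and 0 lower at an unadjusted p under 0.05. In GMP it spanned 25873 to 38807 for KI GMP-like samples, overlapping 34964.5 to 36069.6 for WT GMP samples. Ltf, the lactoferrin gene, fell there at −1.43 (limma adjusted p = 0.0127). At an unadjusted p under 0.05, 0 of the 11 were higher and 3 lower in GMP, with Elane at −1.61 and Prtn3 at −1.10 beside Ltf, both not called. Hepatocyte markers, 8 measured, summed to 402 to 453 in KI ST-HSC, against 587 to 1223 in WT ST-HSC, and to 343 to 467 in KI GMP-like cells, against 393 to 829 in WT GMP. Of these Afp, the fetal plasma protein alpha-fetoprotein, fell in both, at −1.53 (limma adjusted p = 0.00582) in ST-HSC and −1.92 (limma adjusted p = 0.0021) in GMP. The globin and heme list, which also holds heme enzymes used by all cells and whose brightest gene was Hba-a2, summed to 8603 to 9617 in KI ST-HSC and 8334 to 8721 in WT ST-HSC, and their GMP sums overlapped as well, from 6616 to 7565 for KI GMP-like samples and from 6441 to 7451 for WT GMP samples.

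Of 6 measured genes of the sort markers, 2 rose and 1 fell in KI ST-HSC. Slamf1 was higher by a log2 difference of 1.92 (limma adjusted p = 0.0013), although both groups were gated as CD150-. Fcgr3, the gene of CD16, on which the GMP gate was set, was higher by 1.68 in KI ST-HSC (limma adjusted p = 0.00165) and at 0.63 in GMP, not called. Cd34 was lower in KI, with log2 differences of −1.41 in ST-HSC and −2.87 in GMP. In GMP the gates themselves differed in CD34, intermediate for KI GMP-like cells and positive for WT GMP. The study lists Cd34 in its mutant GMP-like cells with the same size and the opposite sign. Kit was at −0.20 and 0.30 and Cd48 at 0.16 and −0.02, in ST-HSC and GMP, not called. Spi1, the gene of PU.1, had 8.08, 8.18 and 8.16 in KI ST-HSC, against 8.03, 7.89 and 7.98 in WT ST-HSC. In GMP it had 8.28, 8.95 and 8.71 in KI GMP-like cells, against 7.95, 8.36 and 8.47 in WT GMP. Its log2 difference was 0.17 in ST-HSC (limma adjusted p = 0.798) and 0.39 in GMP (limma adjusted p = 0.384), neither called. A point mutation cannot be read from a probe set. Xist, a transcript of the silenced X chromosome in female cells, was high in replicates 1 and 3 of WT ST-HSC (11.74 and 11.25) and of WT GMP (10.67 and 11.01). The other 8 arrays, all KI arrays among them, read it at 2.98 to 3.78, and the labels give no sex. Without these 4 WT arrays, 1 WT array was left in each population, whose spread was assumed to be that of the other groups. Kel then differed by 2.96 in ST-HSC (limma adjusted p = 0.0242) and 3.57 in GMP (limma adjusted p = 0.0285), and Car1 by 3.34 in ST-HSC (limma adjusted p = 0.0467). Rhag at 1.29 (limma adjusted p = 0.0826), Ermap at 1.66 (limma adjusted p = 0.134) and Tspo2 at 0.94 in ST-HSC (limma adjusted p = 0.271) and 1.69 in GMP (limma adjusted p = 0.107) kept their direction and were no longer called. Epor differed by 0.22 in ST-HSC and by 3.07 in GMP, where it passed (limma adjusted p = 0.0129).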

How the data were processed

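The deposited values are log2 values of 45101 probe sets, which the authors obtained from Affymetrix MG430 v2 arrays by RMA in R-Bioconductor after linear amplification of the RNA. The sources used here do not give the RMA version. RMA subtracts background, quantile-normalizes the arrays and shrinks differences between dim probe sets. Precision is limited by the number of arrays.

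After removal of 64 control probe sets, all other 45037 entered the tests, dim ones included. The platform annotation gives 34945 of them 1 symbol, 932 several and 9160 none, and symbols were updated to RefSeq of GRCm38.p6. KI minus WT differences in each population and their difference came from limma (version 3.58.1, R 4.3.3), using eBayes on the contrasts of 4 group means (degrees of freedom: 8 residual, 2.52 prior), and were tested two-sided. The study's own calls used SAM, which was not run here.

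Groups were taken from the titles of the sample records. The genes and lists were chosen with earlier results of these data known. All 9 genes are named, and of each related list the called genes, at most 4 per comparison, with up to 2 well-known genes that were not called. Some listed genes were not analysed here. The promoters of Car1, Car2 and Slc4a1 were not analysed here. Alternatives were other samples in the fit, normalizations, filters, choices of probe sets and tests, a replicate block, the Xist level, a limit on the difference of 1, and leaving out each array in turn.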

Additional observations from a re-analysis of the deposited data

How the results depend on the processing

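Precision is limited by 3 arrays in a group, and Rhag is below the array median throughout. Of 603 values of the 9 genes under the alternatives, 551 kept their direction and their side of the threshold, 30 lost a call, 9 gained one and 13 changed sign, 0 of them called. The 603 values pool the ST-HSC and GMP comparisons and the difference between them. Only the 5 genes called in ST-HSC and the 2 called in GMP had a call to lose. Kel was called in both populations under each alternative fit by limma, and the difference between the populations was called for 0 of the 9 under each alternative in which it was run.

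In ST-HSC the 5 genes called higher were 2 with only the 6 arrays of the population, 3 with a floor of log2 6 in 3 or more arrays (which leaves out Rhag and Tspo2), 3 with the Xist level as a covariate, 2 without the WT arrays of high Xist, and 3 to 4 without 1 array. In GMP the 2 called higher were 4 when the probe sets of each gene were averaged and 2 to 3 without 1 array. The methods' t-test, applied to the 6 arrays of a population, gave 0 called in ST-HSC and 0 in GMP after Benjamini-Hochberg, and 6 and 4 at an unadjusted p under 0.05. Tspo2 in ST-HSC also lost its call with the array median subtracted (adjusted p = 0.0554) and with a variance trend (0.0502), and Ermap with the Xist covariate (0.152). Over all probe sets, 458 higher and 538 lower in KI ST-HSC became 1 and 6 by the t-test after adjustment, 2699 and 2654 without it, and 200 to 481 and 291 to 588 without 1 array. The 475 higher and 484 lower in KI GMP-like cells became 0 and 2 by the t-test after adjustment, 2056 and 2460 without it, 122 and 124 with only the 6 arrays, 307 and 300 with the Xist covariate, 204 and 245 without the WT arrays of high Xist, and 252 to 540 and 271 to 553 without 1 array.

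Signs changed only for genes that were not called. In GMP, Slc4a1 was −0.051 with the mean of its probe sets, Rhd −0.073 and Ermap −0.21 with the Xist covariate, and Rhd −0.24 without the WT arrays of high Xist, where Slc4a1 in ST-HSC was 0.039. Without 1 array, Slc4a1 ranged from −1.39 to 0.12 in ST-HSC and from −0.40 to 0.71 in GMP, Rhag in GMP from −0.10 to 0.061, Rhd in GMP from −0.00018 to 0.53 and Ermap in GMP from −0.083 to 0.20.

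Within a population the replicate numbers showed no pairing of KI with WT. Same-numbered KI and WT arrays correlated at 0.03 to 0.07 in ST-HSC and at −0.04 to −0.00 in GMP in their deviations. Whether same-numbered ST-HSC and GMP arrays of a genotype are paired was not tested. Xist was high in WT replicates 1 and 3 of both populations, and the fit treats the 12 arrays as independent. With the replicate block, 5 of the 9 genes were called in ST-HSC and 3 in GMP, Car1 being added (adjusted p = 0.0199), and over all probe sets 255 were higher in KI ST-HSC, and 230 higher and 238 lower in KI GMP-like cells.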
